A study of Mus musculus with 20 samples.

Results

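The genes of sterol and fatty acid synthesis were followed across 6 groups of whole mouse skin, as a list of 38 genes in a sterol arm of 21 and a fatty acid arm of 17. A member was taken as the row of the deposited table that carries its symbol, and 37 of the 38 were found among 46744 rows, 20 in the sterol arm and 17 in the fatty acid arm. Mvd is not analysed here. All 37 averaged 1 FPKM or more across the 6 groups (FPKM divides mapped fragments by gene length and by library size), and none was listed at 0 in any group. FPKM is a value per length, so levels of different genes can be set side by side.

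RNA was sequenced from 20 samples of total skin of the inbred strain C57BL/6, and the labels do not say whether samples of a group came from separate animals. Conditional knockout skin (cKO) was Sod2-/-, lacking the gene of the mitochondrial superoxide dismutase, with 3 samples at 100 days and 3 at 300 days. Control skin was Sod2+/+, with 5 samples at 50 days, 2 at 100 days, 3 at 300 days and 4 at 700 days. The labels give neither the driver of the deletion, nor the cells in which the gene was deleted, nor sex or body site. The table holds 1 value per group, which allows neither an error nor a test for any value given here, and the number of reads behind each value is unknown. Counted as higher or lower were genes whose (FPKM + 1) differed between groups by 1 or more on the log2 scale. Ratios were compared over the 12293 named genes averaging 1 FPKM or more. Left out of these were rows of several symbols without a member, and symbols of predicted genes, microRNAs and pseudogenes. Markers and genes of other lists that had no row left were not compared. The pseudocount of 1 makes the ratio of low genes smaller.

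Both arms start from acetyl-CoA in the cytosol. The sterol arm runs through mevalonate, farnesyl pyrophosphate, squalene and lanosterol to cholesterol, and its genes are driven by the transcription factor SREBP2, which is held back by INSIG proteins when sterols are abundant. The fatty acid arm makes malonyl-CoA and then palmitate, which is elongated and desaturated, and its genes are driven by SREBP1 and by ChREBP, the carbohydrate-sensing factor encoded by Mlxipl. In skin, fatty acids are made in dermal fat and in sebaceous glands, and the epidermis makes sterols and fatty acids for its barrier.

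Facts of the whole table that touch these genes are few. The titles carry a pair of prefixes, one shared by the 50-day and 700-day controls and the other by the 100-day and 300-day groups. Ratios were taken within a prefix only. The keratinocyte genes Krt5 and Krt10 were at least 358 and 542 FPKM in each group, as skin should show. Sod2 was 17.6 FPKM in cKO skin and 27.7 FPKM in control skin at 100 days (log2 ratio -0.63), and 16.8 FPKM in cKO and 23.5 FPKM in control skin at 300 days (-0.46). The labels do not say which exons were removed, so remaining exons may still add to these values. The summed level of 4 genes of the Y chromosome (Uty, Kdm5d, Eif2s3y and Ddx3y) was 107, 101 and 112 FPKM in the 100-day cKO, the 300-day cKO and the 700-day controls. The sum was at most 0.743 FPKM in the 50-, 100- and 300-day controls. In every cKO comparison, and in the 700-day against the 50-day controls, this sex-linked difference and the genotype or age cannot be told apart. The 300-day control stood apart in 10 lymphocyte markers, which summed to 10.7 FPKM in cKO and 386 FPKM in control skin at 300 days, and to 9.36 FPKM in cKO and 12.8 FPKM in control skin at 100 days. All 10 were lower in cKO skin at 300 days (median -3.74), where 5.19% of all genes compared were lower. They were all higher in control skin at 300 against 100 days (median 3.44), where 3.54% of all genes compared were higher. Without Igkc, on average the highest of them, the sums at 300 days were 8.90 FPKM in cKO and 146 FPKM in control skin. With 1 column per group the samples behind this cannot be left out, and its part in the results at 300 days was not tested.

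The fatty acid arm held all counted members, and Scd1 was its highest member in each group. Its 17 members summed to 1249 FPKM in cKO skin and 4072 FPKM in control skin at 100 days, and to 1369 FPKM in cKO and 2572 FPKM in control skin at 300 days. The sums were 772 FPKM in 700-day and 805 FPKM in 50-day controls. The 20 sterol members summed to 510 FPKM in cKO and 457 FPKM in control skin at 100 days, to 450 and 437 FPKM in cKO and control skin at 300 days, and to 693 and 610 FPKM in 700-day and 50-day controls. The fatty acid sum was thus 2.45 times the sterol sum in the 100-day cKO and 8.92 times in its control, 3.04 times in the 300-day cKO and 5.89 times in its control. It was 1.11 times the sterol sum in 700-day and 1.32 times in 50-day controls. Scd1 alone, the stearoyl-CoA desaturase that makes oleate, held 29.8% of the fatty acid sum in cKO and 48.7% in control skin at 100 days. Its share was 38.1% in cKO and 45.7% in control skin at 300 days, and 21.8% in 700-day and 22.9% in 50-day controls. Without Scd1 the fatty acid sum was 877 FPKM in cKO and 2087 FPKM in control skin at 100 days. No single gene dominated the sterol arm. Its highest member in each group was Hmgcs1, the cytosolic synthase that makes HMG-CoA, with 13.4% to 17.0% of the sum.

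**Figure D1:**
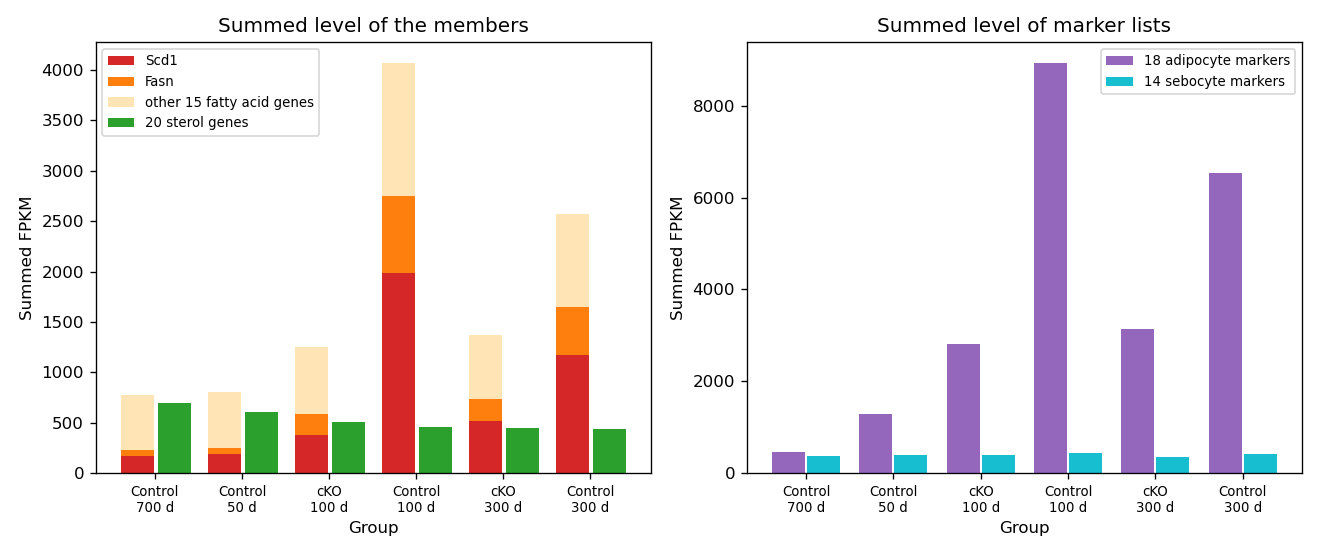
Bars give summed FPKM (linear axis) in the 6 groups: on the left the fatty acid arm, stacked as Scd1, Fasn and the other 15 genes, beside the 20 sterol genes, and on the right 18 adipocyte and 14 sebocyte markers. The fatty acid stack is highest in the 100-day control at 4072 FPKM, as is the adipocyte sum at 8936 FPKM, while the sterol bars stay between 437 and 693 FPKM.

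At 100 days 7 of 17 fatty acid members were counted as lower in cKO skin and none as higher. Over all genes compared, 4.32% were lower and 2.34% higher in that comparison. Rescaling the groups to equal totals changed the counts over all genes from 288 higher and 531 lower to 260 higher and 812 lower. The median log2 ratio of the arm was -0.90, against 0.02 for all genes compared, and 16 of its 17 ratios lay below 0. Of all 12293 genes compared 5909 lay below 0. Fewer cells of a type and less RNA per cell cannot be told apart in whole skin.

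The genes that were lower at 100 days included the enzymes of chain synthesis and their regulators. Scd1 was 372 FPKM in cKO and 1985 FPKM in control skin at 100 days, a log2 ratio of -2.41, which was the 53rd lowest of the 12293 genes. Fasn, the synthase that builds palmitate, was 214 FPKM in cKO and 769 FPKM in control skin (-1.84). Acaca, the acetyl-CoA carboxylase that makes malonyl-CoA for synthesis, was 73.9 FPKM in cKO and 182 FPKM in control skin (-1.29). Its relative Acacb, whose malonyl-CoA restrains fatty acid oxidation, was 15.2 FPKM in cKO and 22.8 FPKM in control skin, a ratio of -0.55 and within the size counted.

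Among the regulators, Thrsp and Mlxipl were lower and Srebf1 was not counted. Thrsp, a small protein induced with lipogenesis, was 72.8 FPKM in cKO and 273 FPKM in control skin (-1.89). Mlxipl was 7.18 FPKM in cKO and 24.2 FPKM in control skin (-1.62). Srebf1 was 86.6 FPKM in cKO and 112 FPKM in control skin (-0.37), in a row that it shares with the microRNA Mir6922. A gene-level value does not separate the SREBP1a and SREBP1c transcripts that share Srebf1, and it says nothing of the cleavage that activates the protein.

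Of the genes that supply acetyl-CoA and NADPH, Acss2 and Me1 were counted as lower, and Acly and Slc25a1 fell short of the size counted. Acss2, which makes acetyl-CoA from acetate, was 19.7 FPKM in cKO and 49.4 FPKM in control skin (-1.29). Me1, the malic enzyme that yields NADPH, was 58.1 FPKM in cKO and 124 FPKM in control skin (-1.08). Just outside were Acly, which splits citrate into acetyl-CoA, at 113 FPKM in cKO and 226 FPKM in control skin (-0.99), and the mitochondrial citrate carrier Slc25a1 at 61.7 FPKM in cKO and 116 FPKM in control skin (-0.90). With the groups rescaled to equal totals both of these passed the size counted, at -1.12 and -1.03.

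The finished chain is elongated and desaturated, and in these roles Scd1, at -2.41, had the lowest ratio of all 37 members at 100 days while the other 6 genes were not counted. The elongases Elovl1, Elovl5 and Elovl6 had ratios of -0.33, 0.03 and -0.43. Elovl1, which extends saturated chains, was 37.1 FPKM in cKO and 46.9 FPKM in control skin. Elovl6, which carries palmitate to stearate, was 45.6 FPKM in cKO and 61.7 FPKM in control skin. Fads1 and Fads2, the front-end desaturases of polyunsaturated fatty acids, had ratios of -0.31 and -0.05. Scd2, the close relative of Scd1, was 32.8 FPKM in cKO and 40.6 FPKM in control skin (-0.30), in a row that it shares with the microRNA Mir5114.

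**Figure D2:**
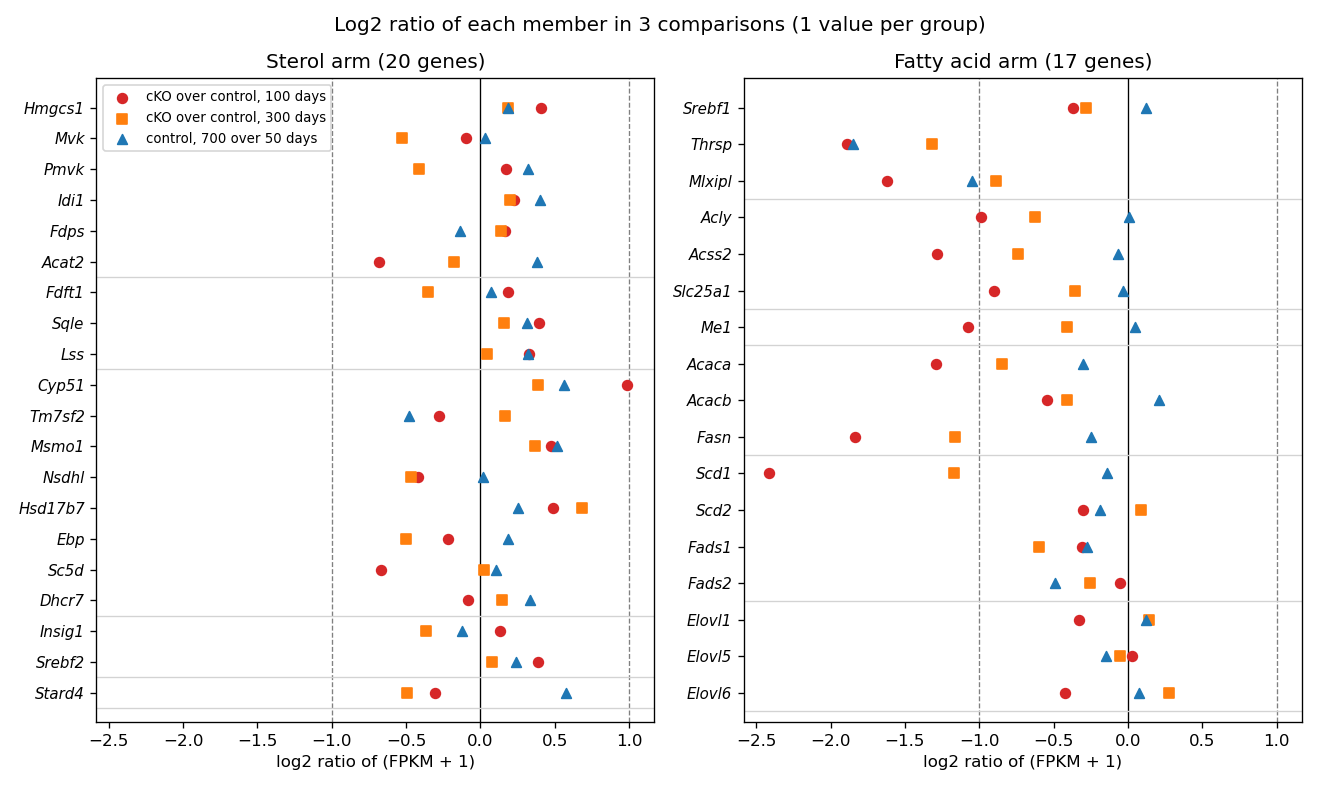
Each row is a member, grouped by role with grey lines between roles, and the horizontal axis is the log2 ratio of (FPKM + 1); circles are cKO over control at 100 days, squares the same at 300 days and triangles 700 over 50 days in controls. Dashed lines mark the size counted. All 20 sterol members lie within the dashed lines, Cyp51 at 100 days being closest at 0.99, and fatty acid members reach -2.41.

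In the sterol arm no member was counted at 100 days, where the median ratio was 0.17 and 12 of 20 ratios were above 0. Of all 12293 genes compared 6360 were above 0, with a median of 0.02. The sterol median was 0.04 with the groups rescaled to equal totals. Cyp51, the lanosterol demethylase, was 38.8 FPKM in cKO and 19.1 FPKM in control skin, a log2 ratio of 0.99. It passed the size counted with a pseudocount of 0.5 (1.01) or 0.1 (1.02) and with the groups rescaled to a common median (1.01). The annotated span of Cyp51 overlaps that of Akap9. Msmo1, the methylsterol oxidase of the next steps, was 34.8 FPKM in cKO and 24.7 FPKM in control skin (0.48). Hsd17b7, a sterol ketone reductase, was 12.4 FPKM in cKO and 8.50 FPKM in control skin (0.49).

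Early steps of the sterol arm at 100 days included both directions within that size. Hmgcs1 was 86.7 FPKM in cKO and 65.2 FPKM in control skin (0.41). Acat2, the thiolase that makes acetoacetyl-CoA, was 6.72 FPKM in cKO and 11.4 FPKM in control skin (-0.68). The mevalonate kinase Mvk and phosphomevalonate kinase Pmvk had ratios of -0.10 and 0.17, and the isomerase Idi1 and farnesyl pyrophosphate synthase Fdps had 0.22 and 0.17. The row of Fdps also carries Rusc1 and a predicted gene, so its value is not of Fdps alone. Fdft1, Sqle and Lss, which form squalene, its epoxide and lanosterol, had ratios of 0.18, 0.39 and 0.33. Of these Sqle was the highest expressed, at 19.2 FPKM in cKO and 14.4 FPKM in control skin.

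Late sterol enzymes were likewise mixed. Sc5d, a sterol desaturase, was 11.8 FPKM in cKO and 19.3 FPKM in control skin (-0.67), and Nsdhl, which removes the carbon left by Msmo1, was 8.84 FPKM in cKO and 12.1 FPKM in control skin (-0.42). The isomerase Ebp had a ratio of -0.21 and the sterol reductase Tm7sf2 one of -0.28, in a row that it shares with Vps51, Zfpl1 and a predicted gene. Dhcr7, the reductase of the last step to cholesterol on one route, was 48.3 FPKM in cKO and 51.3 FPKM in control skin (-0.08). Srebf2, which encodes SREBP2, was 14.1 FPKM in cKO and 10.5 FPKM in control skin (0.39). Insig1, both a restraint on SREBP and one of its targets, was 36.2 FPKM in cKO and 32.9 FPKM in control skin (0.13), and the sterol carrier Stard4 8.22 FPKM in cKO and 10.4 FPKM in control skin (-0.31).

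At 300 days 3 of 17 fatty acid members were counted as lower in cKO skin and none as higher, where 5.19% of all genes compared were lower and 1.92% higher. The median ratio of the arm was -0.41, against -0.01 for all genes compared, and 14 of 17 ratios lay below 0. Of all 12293 genes compared 6290 lay below 0. Thrsp was 75.7 FPKM in cKO and 190 FPKM in control skin (-1.32), Scd1 521 FPKM in cKO and 1176 FPKM in control skin (-1.17), and Fasn 212 FPKM in cKO and 474 FPKM in control skin (-1.16). These 3 genes were also counted as lower at 100 days, in other samples. Mlxipl was 9.04 FPKM in cKO and 17.6 FPKM in control skin (-0.89) and Acaca 62.2 FPKM in cKO and 112 FPKM in control skin (-0.84).

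The remaining fatty acid members at 300 days lay closer to 0. Acss2, Acly, Me1 and Slc25a1 had ratios of -0.74, -0.63, -0.41 and -0.36. Acss2 was 18.6 FPKM in cKO and 31.7 FPKM in control skin. Acly was 98.0 FPKM in cKO and 152 FPKM in control skin, and Me1 58.3 FPKM in cKO and 77.9 FPKM in control skin. Srebf1 was 62.6 FPKM in cKO and 76.4 FPKM in control skin (-0.28), and Acacb 16.7 FPKM in cKO and 22.5 FPKM in control skin (-0.41). Fads1 had -0.60 and Fads2 -0.26. Elovl1 was 53.8 FPKM in cKO and 48.7 FPKM in control skin. Elovl6, Elovl1 and Scd2 were the 3 members with ratios above 0, at 0.28, 0.14 and 0.09, and Elovl5 had -0.05.

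Again no sterol member was counted at 300 days, with a median ratio of 0.06 and 12 of 20 ratios above 0. Of all 12293 genes compared 5978 were above 0, with a median of -0.01. Hsd17b7 had the highest ratio, at 8.85 FPKM in cKO and 5.13 FPKM in control skin (0.68). Mvk had the lowest, at 9.43 FPKM in cKO and 14.0 FPKM in control skin (-0.53), followed by Ebp (-0.50), Stard4 (-0.49) and Nsdhl (-0.47). Cyp51 was 25.9 FPKM in cKO and 19.6 FPKM in control skin (0.39) and Msmo1 36.4 FPKM in cKO and 28.0 FPKM in control skin (0.37). Hmgcs1 was 66.7 FPKM in cKO and 58.5 FPKM in control skin (0.18), Dhcr7 46.2 FPKM in cKO and 41.7 FPKM in control skin (0.14), and Sqle 15.1 FPKM in cKO and 13.5 FPKM in control skin (0.16). Neither regulator was counted. Srebf2 was 12.7 FPKM in cKO and 12.0 FPKM in control skin (0.08), and Insig1 24.5 FPKM in cKO and 31.8 FPKM in control skin (-0.37). Stard4 was 8.004 FPKM in cKO and 11.7 FPKM in control skin.

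**Figure D3:**
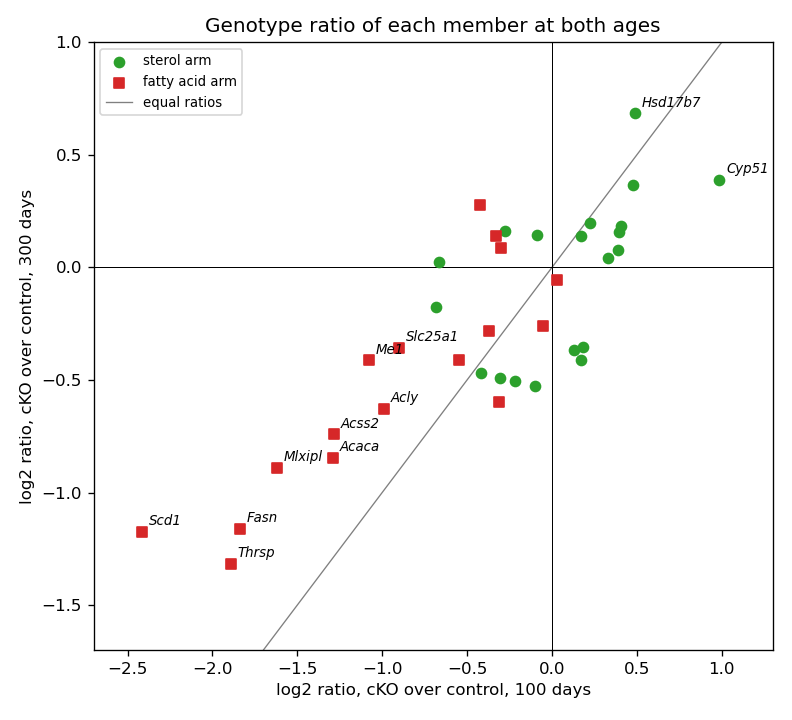
Each point is a member, with its log2 ratio of cKO over control at 100 days on the horizontal axis and at 300 days on the vertical axis; circles are sterol genes, squares fatty acid genes, and the grey line marks equal ratios. Scd1, Thrsp and Fasn lie at the lower left, at -2.41, -1.89 and -1.84 at 100 days and at -1.17, -1.32 and -1.16 at 300 days, above the line of equal ratios.

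Of the 37 members 1, Scd1, had a genotype ratio that differed between the ages by more than the size counted. That is no larger a share than among all genes compared. The difference of log2 ratios, 300 minus 100 days, was 1.24 for Scd1, where 3.92% of all genes compared had a difference of at least 1 and 4.94% of at most -1. Next in size were the fatty acid members Mlxipl (0.73) and Elovl6 (0.71), the sterol member Sc5d (0.69), and Fasn (0.68) and Me1 (0.66). In the opposite direction the sterol members Cyp51 and Pmvk had -0.60 and -0.58. Thrsp had 0.57. The median over the fatty acid arm was 0.47, with 14 of 17 differences above 0, and over the sterol arm it was -0.20, with 5 of 20 above 0. Over all 12293 genes compared it was -0.02, with 5863 above 0. Rescaling to equal totals changed the counts over all genes from 482 above and 607 below to 713 above and 576 below, and the medians to 0.58 for the fatty acid arm and -0.10 for the sterol arm. The 100-day control that enters all of these differences has 2 samples.

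Age within each genotype gives the same values from another side, since the ratios use the same 4 groups. In control skin no member of either arm was counted at 300 against 100 days, while 3.54% of all genes compared were higher and 1.07% lower. Fatty acid ratios were below 0 in 14 of 17 cases, with a median of -0.52, and were lowest for Scd1 (-0.75), Fasn (-0.70) and Acaca (-0.69). Of all 12293 genes compared 5610 were below 0, with a median of 0.03. Rescaling to equal totals changed the counts over all genes from 435 higher and 132 lower to 384 higher and 246 lower, and the median of the fatty acid arm to -0.72. In cKO skin no member was counted either, while 2.43% of all genes were higher and 1.59% lower. There the fatty acid median was -0.02, and Scd1, at 521 FPKM at 300 days and 372 FPKM at 100 days, had a ratio of 0.48. The sterol medians were -0.03 in control and -0.20 in cKO skin.

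**Figure D4:**
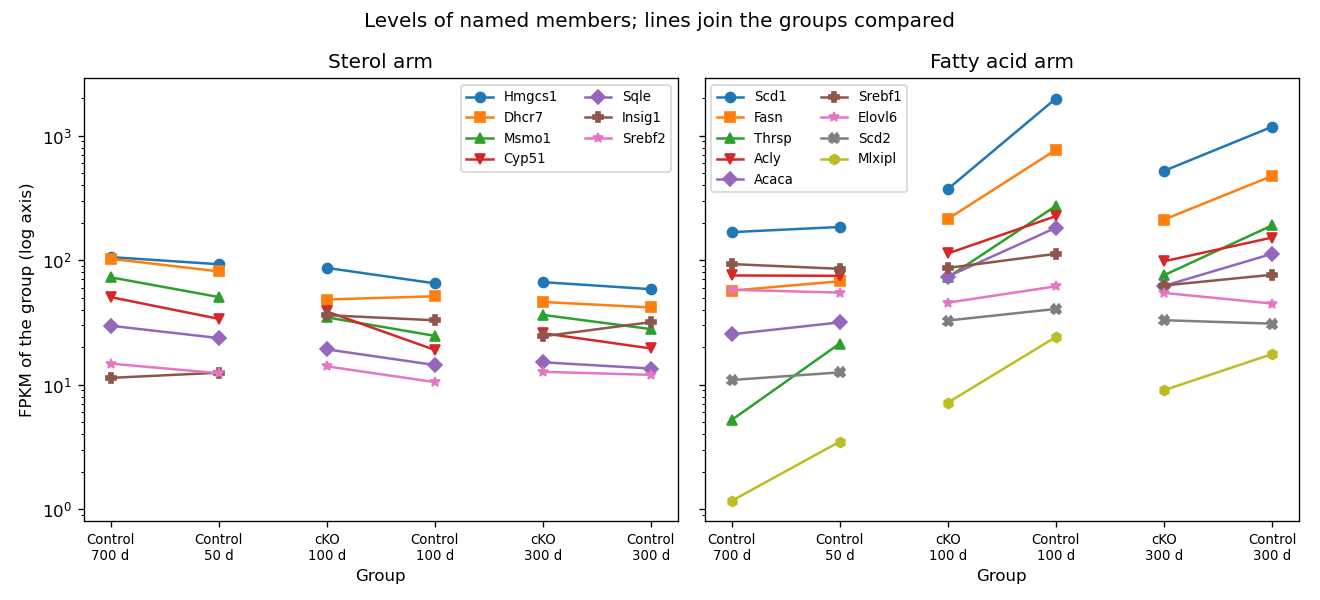
Lines join the FPKM (log axis) of the groups compared, for 7 sterol and 9 fatty acid members. Scd1, Fasn, Thrsp, Acly, Acaca and Mlxipl lie below their control values in cKO skin at both ages, and in the 700-day against the 50-day controls the steep lines are those of Thrsp and Mlxipl, at 5.21 against 21.4 FPKM and 1.17 against 3.49 FPKM.

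Control skin at 700 days differed from that at 50 days in a pair of fatty acid members, both regulators. Thrsp was 5.21 FPKM at 700 days and 21.4 FPKM at 50 days (-1.85), and Mlxipl was 1.17 FPKM at 700 days and 3.49 FPKM at 50 days (-1.05). Of all genes compared 3.26% were lower and 0.765% higher. The enzymes differed less: Scd1 was 168 FPKM at 700 days and 185 FPKM at 50 days (-0.14), Fasn 57.0 FPKM at 700 days and 67.7 FPKM at 50 days (-0.25), and Acaca 25.4 FPKM at 700 days and 31.7 FPKM at 50 days (-0.31). Acss2 was 8.33 FPKM at 700 days and 8.76 FPKM at 50 days (-0.07). Acly was 75.4 FPKM at 700 days and 74.9 FPKM at 50 days (0.01), and Me1 45.2 FPKM at 700 days and 43.8 FPKM at 50 days (0.05). Srebf1 was 93.0 FPKM at 700 days and 85.3 FPKM at 50 days (0.12). Fads2, at 1.05 FPKM at 700 days and 1.88 FPKM at 50 days, had -0.49, and the elongase Elovl1, at 156 FPKM at 700 days and 144 FPKM at 50 days, had 0.12. The median of the arm was -0.14, against -0.03 for all genes compared.

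Sterol members were above 0 in 17 of 20 cases at 700 against 50 days, with a median of 0.25 and none counted. Of all 12293 genes compared 5514 were above 0, with a median of -0.03. The sterol median lay between 0.25 and 0.36 under the alternatives of scaling, pseudocount and filter. Stard4 was 15.6 FPKM at 700 days and 10.2 FPKM at 50 days (0.57), Cyp51 50.5 FPKM at 700 days and 33.8 FPKM at 50 days (0.57), and Msmo1 72.9 FPKM at 700 days and 50.6 FPKM at 50 days (0.52). Hmgcs1 was 106 FPKM at 700 days and 92.8 FPKM at 50 days (0.19), Dhcr7 103 FPKM at 700 days and 81.3 FPKM at 50 days (0.33), and Sqle 29.8 FPKM at 700 days and 23.7 FPKM at 50 days (0.32). Srebf2 was 14.8 FPKM at 700 days and 12.4 FPKM at 50 days (0.24). The 3 ratios below 0 were those of Tm7sf2 (-0.48) and Fdps (-0.14), both in rows of several symbols, and Insig1, at 11.4 FPKM at 700 days and 12.5 FPKM at 50 days (-0.13).

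Markers of fat moved with the fatty acid arm in the cKO comparisons. Of 18 adipocyte markers 18 were lower at 100 days and 13 at 300 days, with medians of -1.76 and -1.22 and none at 0 in any group. Their summed level was 2806 FPKM in cKO and 8936 FPKM in control skin at 100 days, and 3131 FPKM in cKO and 6532 FPKM in control skin at 300 days. At 700 against 50 days 11 of 18 were lower (median -1.18), at a summed level of 449 FPKM at 700 days and 1284 FPKM at 50 days. In that comparison the summed fatty acid arm was 0.958 times its 50-day level, and in the cKO comparisons it was 0.307 and 0.532 times its control level at 100 and 300 days. In control skin at 300 against 100 days 2 of the 18 were lower (median -0.50), and in cKO skin 1 was higher (median 0.14). Over all genes compared, 4.32% and 5.19% were lower in the cKO comparisons at 100 and 300 days, and 3.26% at 700 against 50 days. At 300 against 100 days 1.07% were lower in control skin and 2.43% higher in cKO skin. The part of adipocyte RNA in these results was not tested.

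Other sources of lipid synthesis were read from their markers too. Over all genes compared, 2.34% were higher and 4.32% lower in cKO skin at 100 days, and 1.92% and 5.19% at 300 days. At 700 against 50 days 0.765% were higher and 3.26% lower, and 1.07% were lower in control skin at 300 against 100 days. Counts in these short lists were not tested against these shares. Of 13 sebocyte markers compared 3 (Far2, Fa2h and Awat1) were higher and 1 lower in cKO skin at 100 days (median 0.32), and none higher and 1 lower at 300 days (median 0.29). The sum over all 14 sebocyte markers was 392 FPKM in cKO and 444 FPKM in control skin at 100 days, and 342 FPKM in cKO and 415 FPKM in control skin at 300 days. It was 378 FPKM in 700-day and 380 FPKM in 50-day controls. Mgst1 carried much of these sums, and without it the direction turned in each comparison. The other 13 summed to 167 FPKM in cKO and 152 FPKM in control skin at 100 days, to 177 FPKM in cKO and 173 FPKM in control skin at 300 days, and to 308 FPKM in 700-day and 287 FPKM in 50-day controls. The marker lower at both ages was Pparg, which fat also expresses, and none was at 0 in any group. Pparg is also in the adipocyte list, and Cidea and Elovl3 are also in the brown adipocyte list. Elovl3 and Scd3 also stand among the other genes of elongation and desaturation, and Soat1 among those of cholesterol storage and export. Of 10 mammary and secretory gland markers compared 8 were lower at 100 days and 9 at 300 days. Over 15 such markers the sum was 63.0 FPKM in cKO and 533 FPKM in control skin at 100 days, and 44.0 FPKM in cKO and 193 FPKM in control skin at 300 days. The milk genes Csn1s2a and Lalba were listed at 0 in the 100-day and 300-day controls, and Csn2, Csn1s1, Wap and Wfdc2 were listed at 0 beside them in the 300-day cKO. At 700 against 50 days 6 of the 10 were lower, at sums of 71.7 FPKM at 700 days and 107 FPKM at 50 days. Epcam, on average the highest of the 15, was 64.2 FPKM at 700 days and 56.7 FPKM at 50 days. Without it the sums were 7.46 FPKM at 700 days and 49.9 FPKM at 50 days. At 100 days they were then 29.6 FPKM in cKO and 493 FPKM in control skin, and at 300 days 14.1 FPKM in cKO and 161 FPKM in control skin. In control skin at 300 against 100 days 8 of the 10 were lower (at sums of 193 FPKM at 300 days and 533 FPKM at 100 days). The part of these glands in the results was not tested. Basal keratinocyte markers, 10 in all, had medians of 0.42 and 0.55 in cKO against control skin at 100 and 300 days. Of 11 markers of the hair shaft and inner root sheath, 7 were higher in cKO skin at 100 days and 4 at 300 days, with none lower. At 700 against 50 days 4 of these 11 were lower (median -0.92). All 9 skeletal muscle markers were lower at 700 against 50 days (median -5.24), and 3 of the 9 were lower in cKO skin at 100 days (median -0.56) and none at 300 days. Of 10 markers of differentiated keratinocytes none was counted in cKO skin at 100 days, and 3 were higher at 300 days (Flg 2.76, Casp14 1.98 and Krt1 1.64). Of 9 dermal fibroblast markers 2 were lower at 100 days (median -0.90), and 2 were higher and 1 lower at 300 days (median -0.21). At 700 against 50 days 3 of these 9 were lower (median -0.81). Of 7 brown adipocyte markers 1, Ucp1, was counted as lower at 100 and at 300 days, and of 7 endothelial markers none was counted in either cKO comparison (medians -0.35 and -0.49). The part of these markers in the results was not tested either.

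Genes that feed or follow the fatty acid arm were described from further lists. Of 6 genes of triglyceride assembly compared, 3 were lower in cKO skin at 100 days and 1 at 300 days, none higher. Over all genes compared 4.32% were lower at 100 days and 5.19% at 300 days. Counts in lists this short were not tested against these shares. Dgat2, which adds the last acyl chain to triglyceride, was 40.0 FPKM in cKO and 135 FPKM in control skin at 100 days (-1.73), and 58.8 FPKM in cKO and 95.1 FPKM in control skin at 300 days (-0.68). Gpam, which adds the first, was 21.6 FPKM in cKO and 55.1 FPKM in control skin at 100 days (-1.31), and 22.4 FPKM in cKO and 46.6 FPKM in control skin at 300 days (-1.03). Agpat2, the acyltransferase between them, had -1.34 and -0.95 at 100 and 300 days. Of 5 genes of NADPH supply beyond Me1, 2 were lower at 100 days and 1 at 300 days. The highest expressed of them, Taldo1, G6pdx and Idh1, had ratios of -0.44, -0.22 and -0.64 at 100 days. The counted ones were Pgd and H6pd. Pgd, of the pentose phosphate pathway, was 35.8 FPKM in cKO and 81.0 FPKM in control skin at 100 days (-1.15). H6pd, an enzyme of the endoplasmic reticulum, had -1.03 and -1.01 at 100 and 300 days. Pgd and H6pd were named after their values were seen, and Dgat2 is also one of the adipocyte markers.

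Of 7 acyl-CoA synthetases compared, 2 were lower at 100 days and none at 300 days, where 4.32% and 5.19% of all genes compared were lower. Aacs, which activates acetoacetate, was 222 FPKM in cKO and 502 FPKM in control skin at 100 days (-1.17), and Acsl1, which activates long chains, was 126 FPKM in cKO and 307 FPKM in control skin (-1.28). Acsl5, next in level, had 0.10. Of 11 other regulators of lipogenesis only the coactivator Ppargc1b was counted, at 1.79 FPKM in cKO and 5.24 FPKM in control skin at 100 days (-1.16), and it was named for that. The highest expressed were the NF-Y subunit Nfya, the ChREBP partner Mlx, and Mid1ip1, a relative of Thrsp, with -0.11, 0.09 and -0.14. Among 12 other genes of elongation and desaturation none was counted in either cKO comparison. At 700 against 50 days Hacd1, a dehydratase of elongation, was the 1 gene counted in any of these other pathway lists (-1.05). Of all genes compared 3.26% were lower there. Elovl4, the elongase of very long chains in the epidermal barrier, was 56.2 FPKM in cKO and 31.2 FPKM in control skin at 100 days (0.83), and 53.7 FPKM in cKO and 31.5 FPKM in control skin at 300 days (0.75). Cyb5a, the electron donor of desaturases, and the reductase Tecr had -0.24 and -0.34 at 100 days. None of 5 genes of the separate mitochondrial fatty acid synthesis pathway was counted. Its acyl carrier Ndufab1, also a subunit of respiratory complex I, was 65.0 FPKM in cKO and 110 FPKM in control skin at 100 days (-0.75).

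Genes around the sterol arm gave no counted member in any of the comparisons of groups. That held for 9 genes of SREBP processing and sensing, 8 of the isoprenoid branch and 11 of cholesterol storage and export. Insig2, the relative of Insig1, was 90.02 FPKM in cKO and 49.1 FPKM in control skin at 100 days (0.86), and 69.3 FPKM in cKO and 67.7 FPKM in control skin at 300 days (0.03). Npc1, which exports cholesterol from lysosomes, was 28.6 FPKM in cKO and 16.1 FPKM in control skin at 100 days (0.79). The cholesterol exporter Abca1 had 0.05 at both ages. The esterifying enzyme Soat1 was 34.3 FPKM in cKO and 23.2 FPKM in control skin at 100 days (0.54), and 25.9 FPKM in cKO and 32.8 FPKM in control skin at 300 days (-0.33).

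Promoters of 4 members are shown to set sterol genes that were not counted beside fatty acid genes that were: Hmgcs1 and Msmo1 with genotype ratios of 0.41 and 0.48 at 100 days, and Fasn and Thrsp with -1.84 and -1.89. Each runs from 250 bases before to 50 bases after an annotated start, from RefSeq on GRCm38.p6 (mm10), 5′ to 3′ on the gene's strand. Capitals mark matches of CCAAT, the box bound by NF-Y, on either strand, and of TCACNCCAC, a form of the sterol regulatory element bound by SREBP, on either strand.
Hmgcs1, chr13:119690101-119690400, plus strand: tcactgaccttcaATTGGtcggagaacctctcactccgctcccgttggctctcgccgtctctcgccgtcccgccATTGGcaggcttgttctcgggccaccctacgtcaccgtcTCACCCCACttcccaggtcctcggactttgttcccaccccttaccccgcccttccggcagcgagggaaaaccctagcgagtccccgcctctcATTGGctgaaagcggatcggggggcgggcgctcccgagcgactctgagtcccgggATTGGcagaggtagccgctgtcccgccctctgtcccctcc
Msmo1, chr8:64733529-64733828, minus strand: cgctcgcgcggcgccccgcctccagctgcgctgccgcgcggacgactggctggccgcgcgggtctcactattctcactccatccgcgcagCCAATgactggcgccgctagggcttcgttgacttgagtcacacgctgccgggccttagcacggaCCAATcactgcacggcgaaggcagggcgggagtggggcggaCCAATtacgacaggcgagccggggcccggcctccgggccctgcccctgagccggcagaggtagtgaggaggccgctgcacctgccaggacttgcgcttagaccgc
Fasn, chr11:120824498-120824797, minus strand: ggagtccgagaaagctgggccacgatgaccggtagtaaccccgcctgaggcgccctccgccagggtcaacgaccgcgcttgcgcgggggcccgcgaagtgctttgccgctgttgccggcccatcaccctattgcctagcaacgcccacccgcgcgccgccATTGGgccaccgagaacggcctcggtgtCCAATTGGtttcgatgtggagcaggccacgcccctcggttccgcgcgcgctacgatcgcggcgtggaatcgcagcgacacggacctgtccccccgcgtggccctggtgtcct
Thrsp, chr7:97417501-97417800, minus strand: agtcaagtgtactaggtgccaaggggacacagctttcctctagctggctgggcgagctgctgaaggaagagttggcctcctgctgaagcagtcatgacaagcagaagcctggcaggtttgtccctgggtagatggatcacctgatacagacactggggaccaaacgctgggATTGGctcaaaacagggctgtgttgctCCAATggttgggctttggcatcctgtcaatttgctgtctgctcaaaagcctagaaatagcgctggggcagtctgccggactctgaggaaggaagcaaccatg
In Hmgcs1 the stretch TCACCCCAC starts 137 bases before the annotated start, among 4 NF-Y boxes. Msmo1 and Fasn hold 3 NF-Y boxes each, of which a pair in Fasn lies on opposite strands and overlaps, and Thrsp holds 2.

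RefSeq promoters were searched for 30 of the 37 members, in 38 windows. Scd1, the member with the lowest ratio at 100 days, had no window in the source used and was not searched. Nor were Scd2, Fads1, Sqle, Fdps and Fdft1, for the same reason. Windows on chromosome 18, where Stard4 lies, were left out of the search and of every share given here. At least 1 window held an NF-Y box in 15 of 16 sterol genes and in 11 of 14 fatty acid genes, against 42.3% of 9286 genes compared that had a promoter. Per window the shares were 78.9% of 19 sterol and 63.2% of 19 fatty acid windows, against 37.4% of all 32851 windows. The sterol regulatory element was found in 1 window of each arm, in Hmgcs1 and at a second start of Mlxipl, against 1.24% of all windows. The E-box CACGTG stood in 4 of 16 sterol and 3 of 14 fatty acid genes, against 11.5% of genes compared, and the GC box GGGCGG in 15 of 16 and 8 of 14, against 66.7%. A match describes letters in the window and does not show binding, and no match says only that these letters are not in it.

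**Figure D5:**
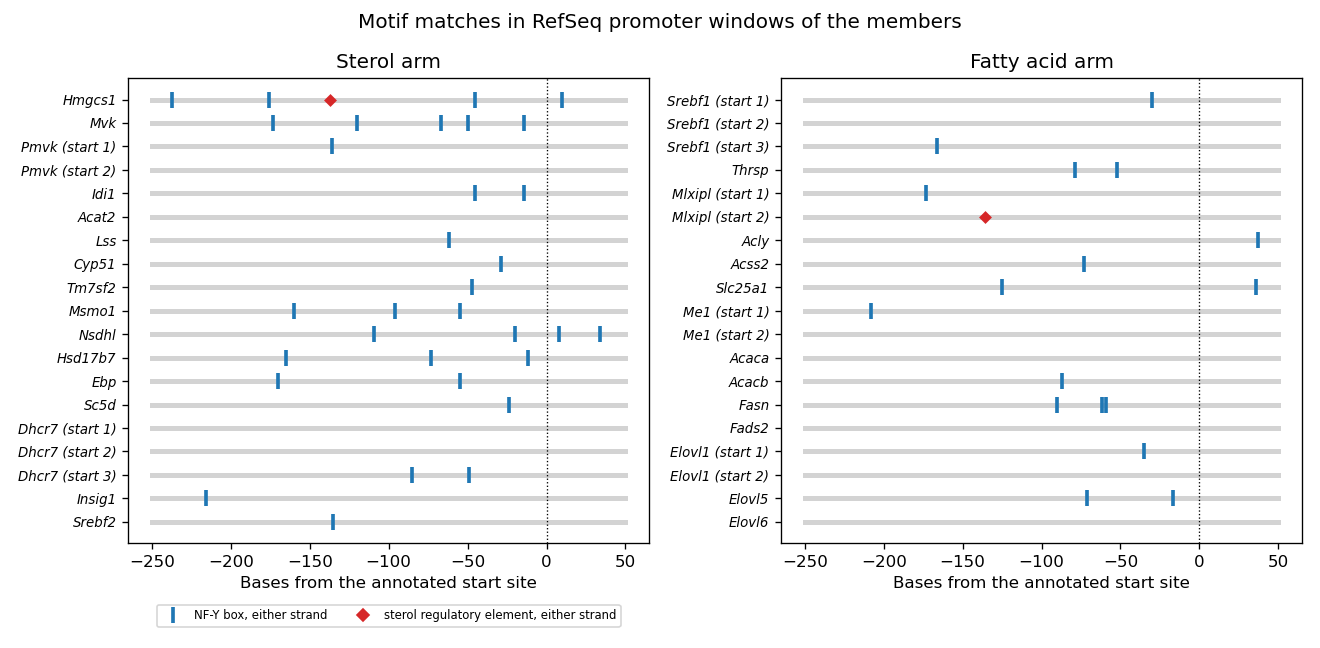
Each grey bar is a promoter window of a member, with distance from the annotated start in bases on the horizontal axis; blue ticks are NF-Y boxes and red diamonds the sterol regulatory element, on either strand. Boxes stand in 15 of 16 sterol and 11 of 14 fatty acid genes, and a diamond in Hmgcs1 and in a second start of Mlxipl.

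In the GRCm38 (mm10) assembly, by GENCODE release M21, Scd1 lies on chromosome 19 from 44394455 to 44407879 beside Scd2 from 44293674 to 44306864. Fasn lies on chromosome 11 from 120805846 to 120824547, Thrsp on chromosome 7 from 97412938 to 97417730 and Mlxipl on chromosome 5 from 135089890 to 135138382. Hmgcs1 lies on chromosome 13 from 119690379 to 119708260 and Cyp51 on chromosome 5 from 4081145 to 4104746. No other annotated gene overlaps Scd1, Fasn or Thrsp. The spans of Acaca, Fdft1, Elovl1, Srebf1 and Acss2 overlap other protein-coding genes, the one at Acaca being the predicted gene Gm11437, and the sources do not say whether reads were assigned by strand.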

How the data were processed

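Ribosomal RNA was removed from whole-skin RNA, by either of 2 kits, and directional libraries were read for 75 cycles, per the labels' protocols, which do not say which sample had which kit. HISAT2, Cufflinks, Cuffdiff and the mm10 build are named in the submitters' processing notes, without versions. The authors deposited 1 table of FPKM values with 1 column per group. The way samples were combined, the annotation and the use of strand are not given in the sources used here. Depth per sample is unknown. From these values log2 ratios of (FPKM + 1) were computed for named genes averaging 1 FPKM or more, and differences of 1 (2-fold) or more were counted. No test was possible with 1 value per group. By the rule set for naming, values in every group are given for the member with the highest mean in each role, for counted members and for regulators, and in the other pathway lists for up to 3 genes with the highest mean. Further members and markers, and Pgd, H6pd and Ppargc1b, were named after their values were seen. Members and lists were chosen with earlier results of these data known, and the list of Y-linked genes was added after the values were seen. A symbol in several rows was taken from the row with the highest mean. The ratio and counting steps were tested on simulated data. Other settings tried were a pseudocount of 0.1 or 0.5, the filter dropped or raised to 5 FPKM, groups rescaled to 1 common median or to equal totals (TPM), rows of a symbol summed, rows of several symbols dropped, and a size of 0.58 (1.5-fold). Promoters were RefSeq windows on GRCm38.p6, without those on chromosome 18, and coordinates GENCODE M21. Python 3.11.15, pandas 2.3.3, numpy 2.4.6 and matplotlib 3.10.9 were used. All 6 columns of values were used, and 0 were left out.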

Additional observations from a re-analysis of the deposited data

How the results depend on the processing

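No arm median changed sign under any alternative tried. The fatty acid median of cKO against control skin lay between -1.03 (equal totals) and -0.88 at 100 days and between -0.60 and -0.37 at 300 days. The sterol median lay between 0.04 and 0.19 at 100 days and between 0.03 and 0.10 at 300 days. At 100 days 1 sterol member, Cyp51, was counted as higher with a pseudocount of 0.1 or 0.5 or a common median. A size of 0.58 counts more genes by its construction. With it 1122 of all 12293 genes were higher and 1501 lower in cKO skin at 100 days, and 980 higher and 1515 lower at 300 days. Beside these, the sterol arm of 20 had 1 higher and 2 lower at 100 days and 1 higher at 300 days. The fatty acid arm of 17 had 9 lower at 100 days and 8 lower at 300 days. With that size control skin at 300 against 100 days had 1 sterol and 5 fatty acid members lower, where 474 of all genes were lower and 944 higher. The genotype difference had 1 sterol member above and 2 below and 5 fatty acid members above, where 1463 of all genes were above and 1641 below. Equal totals moved the median of all genes by -0.12 (cKO at 100 days), by -0.18 (control skin, 300 against 100 days) and by 0.10 (genotype difference). Single genes with very large ratios enter these totals. In those first 2 comparisons Lars2 had -13.1 in each, and mt-Tl1 had 7.67 and 7.30. At 700 against 50 days the lowest ratio was that of mt-Rnr1 (-13.7). The part of such genes in the rescaled results was not tested. Over all genes, counts moved by over 1.5 times under 3 settings beside the size of 0.58. With a pseudocount of 0.1 they were 502 higher and 827 lower in cKO skin at 100 days (288 and 531 as reported), 396 higher and 900 lower at 300 days (236 and 638), and 159 higher and 780 lower at 700 against 50 days (94 and 401). At 300 against 100 days that pseudocount gave 223 lower in control skin (132), and 485 higher and 394 lower in cKO skin (299 and 196). A mean of at least 5 FPKM left 8690 of the 12293 genes, so its counts come from fewer genes. With it cKO skin had 182 higher and 338 lower at 100 days, and 155 higher and 284 lower at 300 days. At 700 against 50 days 60 were higher. That filter left 167 higher and 71 lower in control skin and 183 higher and 93 lower in cKO skin at 300 against 100 days, and 295 above and 266 below for the genotype difference (482 and 607). Equal totals gave 812 lower at 100 days and 246 lower in control skin at 300 against 100 days. No paired analysis was possible because the table holds 1 column per group, and for the same reason no replicate could be left out. The unknown depth limits the low genes most.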

Other observations

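Within pairs of related genes the ratio of levels per length differed between groups. The level of Scd1 was 11.4 times that of Scd2 in cKO and 48.9 times in control skin at 100 days, and 15.8 times in cKO and 37.99 times in control skin at 300 days. It was 15.4 times at 700 days and 14.7 times at 50 days in controls. For Acaca over Acacb the ratio was 4.85 in cKO and 8.004 in control skin at 100 days, 3.73 in cKO and 5.004 in control skin at 300 days, and 3.002 and 4.40 in 700-day and 50-day controls. Srebf1 over Srebf2 was 6.16 in cKO and 10.7 in control skin at 100 days, and 4.93 in cKO and 6.36 in control skin at 300 days. Scd1 and Scd2 are close copies, and the sources do not say how reads shared by both were assigned. The rows of Scd2 and Srebf1 each also carry a microRNA. Aacs had a genotype difference, 300 minus 100 days, of 1.13, at 344 FPKM in cKO and 354 FPKM in control skin at 300 days.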
